A study of Mus musculus with 5 samples.

Results

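Carboxylesterases, alcohol dehydrogenases, aldehyde dehydrogenases, aldo-keto reductases, flavin monooxygenases and aldehyde oxidases form the 6 enzyme families described here in injured mouse liver. Members were taken by symbol, as every gene named Ces, Adh, Aldh, Akr, Fmo or Aox followed by a digit, with the retinal dehydrogenases Aldh1a1, Aldh1a2 and Aldh1a3 left out. The rule found 71 members among 24808 rows with a gene symbol: 19 Ces, 6 Adh, 18 Aldh, 17 Akr, 7 Fmo and 4 Aox genes. Of these, 56 passed the filter on low counts and entered the test.

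Liver RNA was sequenced from 16-week-old C57BL/6 mice given carbon tetrachloride (CCl4) with givinostat (2 libraries) or CCl4 without it (3 libraries). CCl4 is a hepatotoxin that scars the rodent liver on repeated use, and givinostat inhibits histone deacetylases, enzymes that take acetyl groups off histone tails. Both groups had received CCl4, so the comparison holds no uninjured liver, and it asks how liver transcripts differ when the inhibitor is added. The sources used here do not give dose, schedule or sex. The Y-linked genes Ddx3y, Kdm5d, Eif2s3y and Uty were listed at 0 in all 5 libraries, and Xist, the X-inactivation transcript, was at 665 and 671 CPM with CCl4+givinostat and 661, 810.0 and 809 CPM with CCl4, the pattern of female liver. The libraries held 18634801 to 21773867 counts. Albumin, the main product of hepatocytes, took 7.01 to 8.14% of them, and all 9 hepatocyte markers found in the tables were expressed in every library. The transcripts of the 71 members together made up 1.31 to 1.49% of the TMM-scaled library size with CCl4+givinostat and 1.43 to 1.61% with CCl4. That scale differs from the raw library totals used for albumin.

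These enzymes act on foreign compounds and on small molecules made by the cell. Carboxylesterases cut ester bonds in drugs and in stored lipids. Alcohol dehydrogenases turn alcohols into aldehydes, aldehyde dehydrogenases and aldehyde oxidases turn aldehydes into acids, and aldo-keto reductases work the other way, reducing aldehydes and ketones, steroids among them. Flavin monooxygenases put oxygen on nitrogen and sulfur atoms. Many of them are abundant in hepatocytes.

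With givinostat, members lay both higher and lower, and the families differed in which way their leading members lay. Fmo2, Akr1b7 and the esterases Ces2a, Ces1d and Ces1e were among those with the higher values with CCl4+givinostat. Akr1c6, Akr1c14 and Akr1c20, Aox3, Aldh1b1, Aldh1a7, Aldh3b2, Aldh3b3, Adh1 and Adh4, together with Ces1b and Akr1c18, had the lower ones. Among 13590 genes fitted with edgeR (quasi-likelihood test, p adjusted by Benjamini-Hochberg), 0 of the 56 members passed an adjusted p of 0.05, where 0.00736% of all genes passed as higher and 0% as lower. The smallest edgeR adjusted p among members was 0.180, for Akr1c14. Of the 56 members, 21 (37.5%) had a fitted value above 0, against 46.2% of all genes. An unadjusted edgeR p under 0.05 was found for 18 members (32.1%, against 7.45% of all genes): 6 were higher (10.7% of those tested, against 3.52% of all genes) and 12 were lower (21.4%, against 3.93% of all genes). The counts at that threshold given below for families and lists stand against these same shares of all genes. DESeq2, run on the same 13590 genes, called 8 members (14.3%, against 1.09% of all genes). It called 4 higher, among them Fmo2, Akr1b7 and Ces2a, and 4 lower, namely Akr1c6, Akr1c14, Aox3 and Aldh1b1. These are 7.14% of the tested members in each direction, against 0.508% of all genes called higher and 0.581% called lower. In bulk liver, fewer cells of a type and less RNA per cell cannot be told apart.

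The groups did not overlap for 11 members that were higher (19.6%, against 11.7% of all genes) and for 12 that were lower (21.4%, against 11.7%). An exact two-sided permutation test of a single gene over the 10 assignments of the 5 libraries cannot go below p = 0.1, which is what it gives for a gene whose groups do not overlap and whose means lie furthest apart. The median log2 fold change (CCl4+givinostat over CCl4) was -0.13 over the 56 members and -0.02 over all genes tested, and 25 of the 56 lay within 0.25 of 0. The members' median ran from -0.22 without CCl4+givinostat replicate 1 to -0.03 without CCl4+givinostat replicate 2, and was -0.07 without CCl4 replicate 1. CCl4 replicate 1 weighed on the calls. Without it, edgeR called 5 members higher and 6 lower (19.6% of those tested, against 1.75% of all genes in that fit). Among these were Ces2a, Ces1d, Ces1e and Fmo2 on the higher side, and Akr1c6, Akr1c14, Akr1c20, Aldh1b1, Aldh3b3 and Aox3 on the lower side. Without CCl4 replicate 2 or CCl4 replicate 3 edgeR called 0 members, and 0 of all genes in those fits. Without CCl4 replicate 2, the members lower at an unadjusted p under 0.05 numbered 7 in place of 12. The DESeq2 calls also moved, from 4 higher and 4 lower to 6 and 7 without CCl4 replicate 1 (where 3.23% of all genes were called in either direction). They were 1 and 0 without CCl4 replicate 2, where 64 of 13590 genes were called. Without CCl4 replicate 3 they were 2 and 2, where 146 of 13590 genes were called. Leaving out a CCl4+givinostat library leaves 1 library in that group, so calls of those fits are not given.

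**Figure D1:**
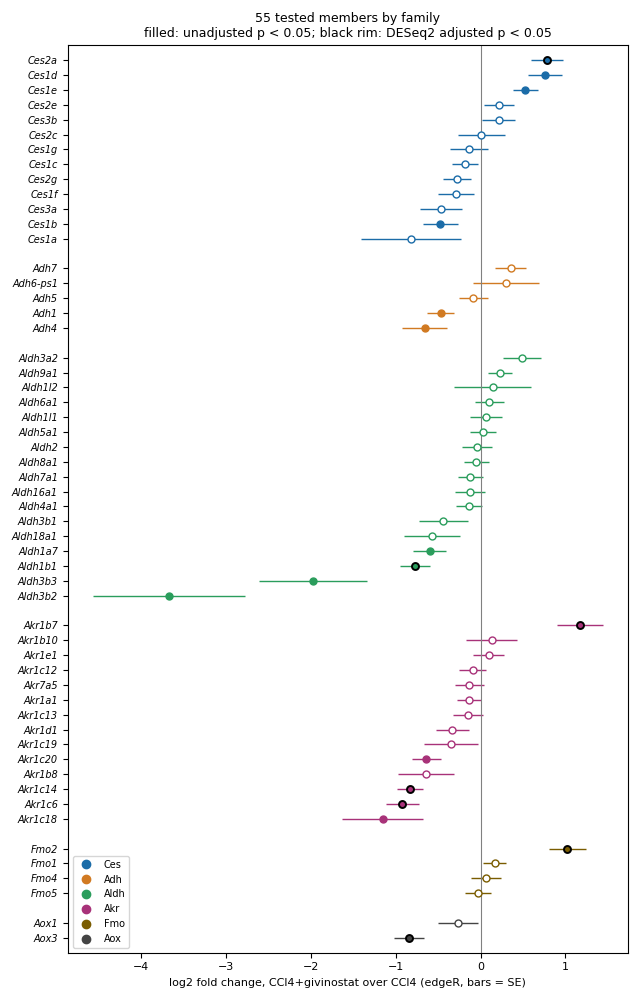
Log2 fold change (CCl4+givinostat over CCl4, edgeR) of 55 tested members by family, with bars of 1 SE; filled points have an unadjusted p under 0.05 and a black rim marks a DESeq2 adjusted p under 0.05. Filled points stand on both sides of 0, 5 to the right and 12 to the left.

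The bases just before the start of transcription are shown for 7 DESeq2-called members that have an entry in the RefSeq promoter table (GRCm38.p6), since these members passed a test. The GENCODE gene begins at the RefSeq start for Aldh1b1 and Ces2a and elsewhere for Akr1c6, Akr1c14, Aox3, Fmo2 and Akr1b7. For Akr1c14 the window ends at 4059590, far inside the GENCODE gene that begins at 4049011, so it precedes a different start. Each line gives the 150 bases before the start, read 5′ to 3′ on the gene's strand, and capitals mark matches on either strand to the motifs listed after the sequences.
Akr1c6, chr13:4434193-4434342, plus strand: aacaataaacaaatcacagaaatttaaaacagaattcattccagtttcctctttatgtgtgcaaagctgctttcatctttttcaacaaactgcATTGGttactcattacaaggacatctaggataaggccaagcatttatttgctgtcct
Akr1c14, chr13:4059441-4059590, plus strand: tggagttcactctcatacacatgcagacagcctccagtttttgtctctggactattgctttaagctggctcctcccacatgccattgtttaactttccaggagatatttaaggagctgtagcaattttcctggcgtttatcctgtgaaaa
Aox3, chr1:58112986-58113135, plus strand: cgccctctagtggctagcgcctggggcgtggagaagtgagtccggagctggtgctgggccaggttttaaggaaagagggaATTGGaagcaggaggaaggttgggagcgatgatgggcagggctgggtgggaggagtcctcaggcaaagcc
Aldh1b1, chr4:45798872-45799021, plus strand: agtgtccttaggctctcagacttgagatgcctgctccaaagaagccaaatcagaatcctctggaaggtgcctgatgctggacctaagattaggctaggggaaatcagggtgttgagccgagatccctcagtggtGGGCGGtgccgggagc
Fmo2, chr1:162898759-162898908, minus strand: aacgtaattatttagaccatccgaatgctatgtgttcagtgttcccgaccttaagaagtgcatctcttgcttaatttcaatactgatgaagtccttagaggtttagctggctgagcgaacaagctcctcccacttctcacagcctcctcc
Akr1b7, chr6:34412212-34412361, plus strand: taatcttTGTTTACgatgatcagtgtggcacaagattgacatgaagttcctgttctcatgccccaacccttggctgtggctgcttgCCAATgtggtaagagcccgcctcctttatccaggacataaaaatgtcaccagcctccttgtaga
Ces2a, chr8:104733853-104734002, plus strand: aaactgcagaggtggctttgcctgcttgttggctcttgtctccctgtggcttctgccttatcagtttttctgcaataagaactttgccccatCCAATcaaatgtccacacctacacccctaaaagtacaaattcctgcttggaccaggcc

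The motifs searched were TATAAA (the TATA box), CCAAT (the CCAAT box), AGGTCA (the nuclear receptor half-site), GTTAAT (the HNF1 half-site), TGTTTAC (the forkhead core), TGACNNNGC (the antioxidant response element core), CACGTG (an E-box) and GGGCGG (the GC box). No 2 of the matches in these sequences overlap. A CCAAT motif stood in Akr1c6, Aox3, Ces2a and Akr1b7, that is, in genes that lay lower and in genes that lay higher. It began 57, 70, 58 and 64 bases before the start in these genes, in the order just given. Akr1b7 also held TGTTTAC and Aldh1b1 held GGGCGG, while Akr1c14 and Fmo2 held none of the 8 motifs in this window. Over all 56 members with an entry, CCAAT stood in 46.4% of windows against 24.5% of 32851 promoter windows. TGTTTAC stood in 8.93% against 1.80%, AGGTCA in 12.5% against 8.58%, and TGACNNNGC in 1.79% against 6.80%. The TGTTTAC windows all belonged to aldo-keto reductases (Akr1b7, Akr1b10, Akr1c12, Akr1c13 and Akr1c21), which are related genes. These 56 members are not the 56 tested, since some tested members have no entry and some untested ones do, such as Adh6a and Fmo9. Each member gave a single window, while the 32851 windows were not reduced to a single window per gene. TATAAA stood in 7.14% against 7.57%, GTTAAT in 8.93% against 3.71%, CACGTG in 7.14% against 4.30% and GGGCGG in 23.2% against 28.6%. A match describes letters and is not evidence of a bound factor.

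Transcript levels spread over more than 3 orders of magnitude. Scaled by exon length (CPM per kb of exon, from GENCODE M21 models on GRCm38), Ces1c, the esterase that mouse liver secretes into plasma, was highest at 1098 with CCl4+givinostat and 1247 with CCl4, in CPM per kb. Adh1, the ethanol-oxidising class I enzyme, followed at 698 with CCl4+givinostat and 965 with CCl4. Akr1c6, a 17beta-hydroxysteroid dehydrogenase, was at 231 with CCl4+givinostat and 436 with CCl4. Ces1d was at 352 with CCl4+givinostat and 207 with CCl4, and Aldh2 was at 346 with CCl4+givinostat and 356 with CCl4. Among flavin monooxygenases Fmo5 led with 91.4 with CCl4+givinostat and 93.4 with CCl4. The 2 aldehyde oxidases with most counts were far lower on this scale of CPM per kb, Aox3 at 9.61 with CCl4+givinostat and 17.2 with CCl4 and Aox1 at 11.2 with CCl4+givinostat and 13.5 with CCl4. Without scaling by length, the 5 members with most counts were Ces1c, Adh1, Aldh2, Akr1c6 and Ces1d, which held 51.0 to 54.1% of the summed CPM of the 71 members in each library.

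**Figure D2:**
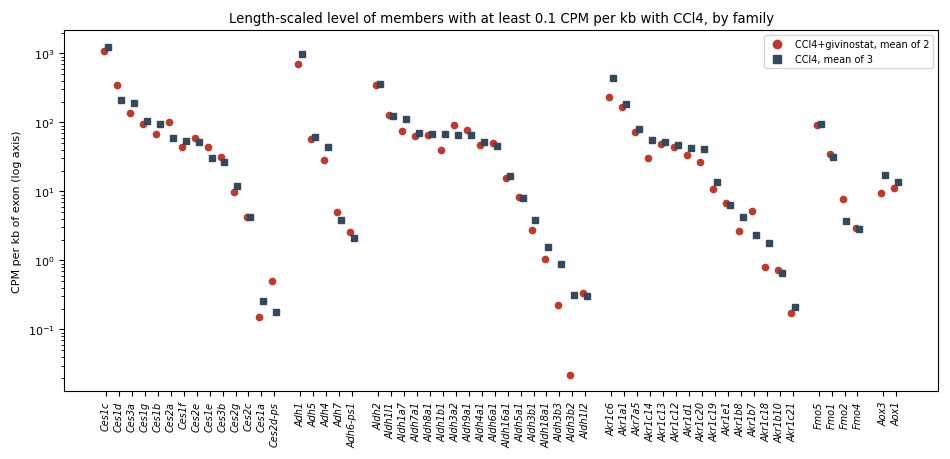
Mean level in CPM per kb of exon (log axis) of members with at least 0.1 CPM per kb with CCl4, by family, as circles for CCl4+givinostat (mean of 2) and squares for CCl4 (mean of 3). Ces1c and Adh1 are highest in both groups, and Aldh3b2 shows the widest gap between its 2 symbols.

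The other 15 members did not pass the filter on low counts, and 7 of them, Ces5a, Ces2f, Adh6a, Akr1cl, Akr1b3, Fmo9 and Aox4, were listed at 0 in all 5 libraries. A count of 0 allows up to 3 counts, or 0.135 to 0.156 CPM in these libraries, counting error only. Akr1b3, the aldose reductase gene, has copies elsewhere in the genome, and 8.73% of its 50-base stretches also occur in the transcript of Gm6644. The sources used here do not say how counting treated such reads, so its 0 is reported only as listed. The other 8 untested members, Ces2d-ps, Ces2h, Ces4a, Ces2b, Aldh3a1, Akr1c21, Fmo6 and Aox2, had some counts. The highest count among them was 26, for the pseudogene Ces2d-ps in CCl4+givinostat replicate 2.

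The carboxylesterases lie in 2 runs on chromosome 8 (GRCm38), with Ces1 genes and Ces5a in one and Ces2, Ces3 and Ces4a genes in the other. Of 13 tested, 6 had a higher fitted value and 7 a lower one (median -0.13), with 3 higher and 1 lower where the unadjusted p was under 0.05. The Ces median was 0.03 without CCl4 replicate 2 and 0.05 without CCl4+givinostat replicate 2. Their summed level hardly differed, at 5164 and 4577 CPM with CCl4+givinostat and 5223, 5147 and 4511 CPM with CCl4, and the groups overlapped. Ces2a, a liver and gut esterase (chromosome 8, 104734003 to 104741634, plus strand), was at 274 and 207 CPM with CCl4+givinostat and 165, 118 and 135 CPM with CCl4. Both livers with givinostat lay above all 3 with CCl4, and the log2 fold change was 0.78 ± 0.19 (SE; adjusted p = 0.330 with edgeR and 0.0473 with DESeq2). A related sequence named Gm7208 shares 16.3% of the 50-base stretches of Ces2a, so its reads may be split. Ces1d, the esterase known as triacylglycerol hydrolase, which releases fatty acids from stored fat for lipoprotein assembly (chromosome 8, 93166068 to 93197838, minus strand), was at 821 and 845 CPM with CCl4+givinostat and 629, 426 and 419 CPM with CCl4. CCl4 replicate 1 was the highest of its group and still lay below both CCl4+givinostat libraries (log2 fold change 0.76 ± 0.20, SE; adjusted p = 0.372 with edgeR and 0.0681 with DESeq2).

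Ces1e, also called egasyn, which holds beta-glucuronidase in the endoplasmic reticulum, is the next gene along, 3.38 kb from Ces1d. Ces1e was at 98.3 and 93.6 CPM with CCl4+givinostat and 73.1, 64.9 and 61.4 CPM with CCl4, and its groups did not overlap either (0.53 ± 0.14, SE; adjusted p = 0.394 with edgeR and 0.147 with DESeq2). The genes on either side of this pair had fitted values on the other side of 0, -0.18 for Ces1c and -0.28 for Ces1f. Ces1c was at 2693 and 2409 CPM with CCl4+givinostat and 2919, 2959.5 and 2809 CPM with CCl4, with groups that did not overlap but a difference within 2 standard errors (SE 0.149; adjusted p = 0.876 with edgeR). Ces1b was at 151 and 112 CPM with CCl4+givinostat and 194, 209 and 146 CPM with CCl4. One CCl4+givinostat library reached above the lowest CCl4 library for Ces1b, and its log2 fold change was -0.48 ± 0.21 (SE; adjusted p = 0.667 with edgeR). Ces3a, a microsomal liver esterase, was at 420.3 and 302 CPM with CCl4+givinostat and 492, 638 and 371 CPM with CCl4, with overlapping groups, and its near copy Ces3b was at 91.5 and 68.2 CPM with CCl4+givinostat and 79.2, 71.3 and 56.2 CPM with CCl4. Their fitted log2 fold changes had opposite signs (-0.47 ± 0.25 and 0.21 ± 0.20, SE). Without CCl4+givinostat replicate 1 Ces3b was at -0.01, and without CCl4+givinostat replicate 2 Ces3a was at -0.25, so the opposite signs did not hold in every fit. Ces3b shares 25.6% of the 50-base stretches of Ces3a, and Ces3a shares 26.2% of those of Ces3b. The rest of the tested esterases, Ces1g, Ces1f, Ces2e, Ces2g, Ces2c and Ces1a, had overlapping groups and log2 fold changes from -0.82 to 0.21.

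**Figure D3:**
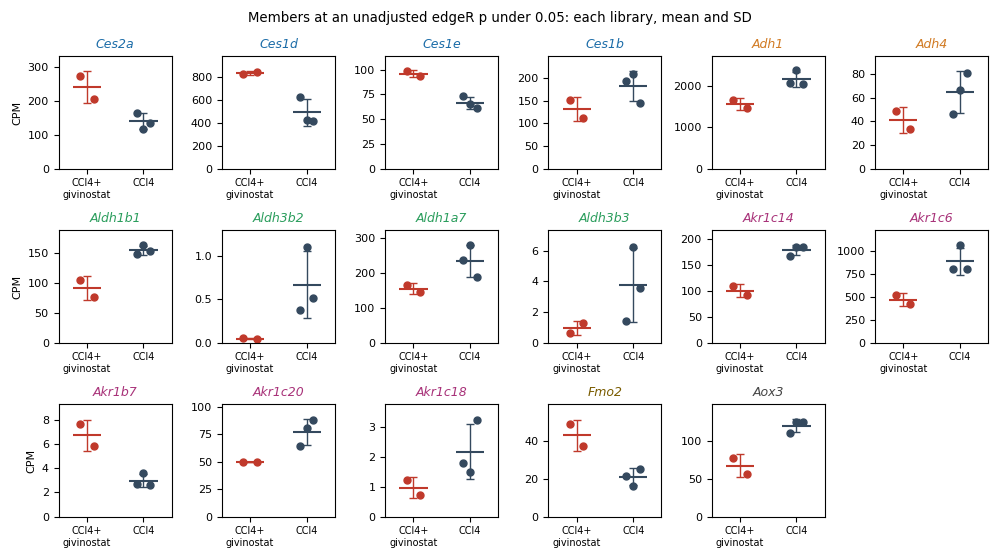
CPM in each library for 17 members at an unadjusted edgeR p under 0.05, with CCl4+givinostat on the left and CCl4 on the right of each panel; bars are the mean and SD, and each axis starts at 0. The groups do not overlap in 15 of the 17 panels, the exceptions being Ces1b and Adh4. Choosing members by p on these same libraries favours such separation.

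The alcohol dehydrogenases sit side by side on chromosome 3. Of 5 tested, 2 had a higher and 3 a lower fitted value (median -0.08), and at an unadjusted p under 0.05 the counts were 0 higher and 2 lower. Without CCl4+givinostat replicate 2 the Adh median was 0.10. Adh1 (chromosome 3, 138260991 to 138290698, plus strand) was at 1659 and 1458 CPM with CCl4+givinostat and 2055, 2370.3 and 2041 CPM with CCl4. All 3 CCl4 libraries lay above both CCl4+givinostat libraries, and the log2 fold change was -0.47 ± 0.16 (SE; adjusted p = 0.521 with edgeR and 0.270 with DESeq2). Because Adh1 carries most of the family's counts, the summed family level, 2094 and 1787 CPM with CCl4+givinostat and 2426, 2815 and 2483 CPM with CCl4, showed the same order. Adh4, the class II enzyme, which handles longer alcohols and retinol, was at 48.6 and 33.2 CPM with CCl4+givinostat and 46.3, 66.4 and 81.2 CPM with CCl4. Its groups overlapped through CCl4 replicate 1, which lay below the higher CCl4+givinostat library (-0.66 ± 0.26, SE; adjusted p = 0.629 with edgeR). Adh5, the class III enzyme that clears formaldehyde and S-nitrosoglutathione, was at 357 and 272 CPM with CCl4+givinostat and 304, 359 and 338 CPM with CCl4, with a fitted difference of -0.08 ± 0.17 (SE) whose sign changed without CCl4+givinostat replicate 2 (0.10). Adh7, the class IV retinol-oxidising enzyme, was at 19.0 and 18.6 CPM with CCl4+givinostat and 17.2, 12.6 and 14.4 CPM with CCl4. Its 2 CCl4+givinostat values lay above the CCl4 values by a small margin (0.35 ± 0.18, SE; adjusted p = 0.773 with edgeR). The pseudogene Adh6-ps1 had overlapping groups (0.30).

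Among the aldehyde dehydrogenases, 6 of 17 tested members had a higher and 11 a lower fitted value (median -0.12), with 0 higher and 4 lower where the unadjusted p was under 0.05. Without CCl4+givinostat replicate 2 the Aldh median was 0.02. Aldh2, the mitochondrial enzyme that clears the acetaldehyde made from ethanol, was at 1891 and 1656 CPM with CCl4+givinostat and 2123, 1697 and 1658 CPM with CCl4. Its groups overlapped and its fitted difference was -0.04 ± 0.17 (SE), with a sign that changed without CCl4 replicate 1 (0.08) or CCl4+givinostat replicate 2 (0.05). Aldh1b1, a second mitochondrial aldehyde dehydrogenase (chromosome 4, 45799022 to 45804604, plus strand), was at 105 and 76.3 CPM with CCl4+givinostat and 147, 163 and 153 CPM with CCl4. Here the CCl4 libraries lay close together and above both CCl4+givinostat libraries, and the log2 fold change was -0.77 ± 0.17 (SE; adjusted p = 0.280 with edgeR and 0.0210 with DESeq2). With each library left out, the Aldh1b1 log2 fold change was -1.01 to -0.56. Aldh1a7, a cytosolic enzyme close in sequence to Aldh1a1, was at 166 and 144 CPM with CCl4+givinostat and 237, 278 and 188 CPM with CCl4, with groups apart (-0.60 ± 0.19, SE; adjusted p = 0.495 with edgeR and 0.264 with DESeq2). Aldh1a1 shares 7.49% of the 50-base stretches of Aldh1a7.

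Aldh3b3 and Aldh3b2, membrane-bound enzymes of lipid aldehydes, are 0.224 kb apart on chromosome 19, and both were rare. Aldh3b3 was at 0.639 and 1.26 CPM with CCl4+givinostat and 1.42, 6.25 and 3.59 CPM with CCl4, with CCl4 replicate 1 near the higher CCl4+givinostat library (-1.97 ± 0.64, SE; adjusted p = 0.50 with edgeR and 0.0946 with DESeq2). Aldh3b2 had 1 and 1 counts with CCl4+givinostat and 8, 23 and 10 counts with CCl4. The ratio of pooled depth-scaled Aldh3b2 counts was 0.0686 (exact 95% interval 0.00804 to 0.264, counting error only; adjusted p = 0.330 with edgeR and 0.183 with DESeq2). Aldh3b3 shares 23.5% of the 50-base stretches of Aldh3b2, so the 2 genes are not independent measurements. Aldh3b1, a neighbour of the pair, was at 5.95 and 5.48 CPM with CCl4+givinostat and 5.45, 10.2 and 7.64 CPM with CCl4, with overlapping groups (-0.44 ± 0.29, SE). Markers of mesothelium, the lining of the liver surface, differed between the groups as well, 6 of 6 being lower at an unadjusted p under 0.05, with summed levels of 426 and 376 CPM with CCl4+givinostat and 746, 559 and 459 CPM with CCl4. Nearly all of that sum was Krt8, a keratin shared with other epithelia, while Msln, the defining marker, was at 0 and 0.0449 CPM with CCl4+givinostat and 3.41, 1.15 and 2.81 CPM with CCl4. Within the CCl4 group Msln was lowest in replicate 2, the library where Aldh3b2 and Aldh3b3 were highest, and the part of mesothelium in the 2 genes was not tested.

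Aldh3a2, the fatty aldehyde dehydrogenase, ran the other way and was at 489 and 546 CPM with CCl4+givinostat and 458, 264 and 385 CPM with CCl4. Both CCl4+givinostat libraries lay above the CCl4 libraries, CCl4 replicate 1 by little (0.49 ± 0.22, SE; adjusted p = 0.712 with edgeR and 0.707 with DESeq2). Aldh1l1, the folate enzyme 10-formyltetrahydrofolate dehydrogenase, was at 674 and 482 CPM with CCl4+givinostat and 592, 591 and 479 CPM with CCl4, and its fitted difference of 0.06 ± 0.19 (SE) was within the spread of the libraries. The dehydrogenases of amino acid and carnitine pathways, Aldh4a1 (proline), Aldh5a1 (GABA), Aldh6a1 (valine), Aldh7a1 (lysine), Aldh8a1 (tryptophan) and Aldh9a1 (carnitine synthesis), had log2 fold changes from -0.14 to 0.23. Of these 6, the groups were apart for Aldh9a1 alone, at 276 and 241 CPM with CCl4+givinostat and 204, 227 and 228 CPM with CCl4, and its edgeR adjusted p was 0.827. Over all genes the groups were apart for 11.7% in each direction. Aldh18a1, which starts proline synthesis, was at 3.68 and 4.85 CPM with CCl4+givinostat and 5.21, 4.91 and 8.99 CPM with CCl4, with groups apart (-0.57 ± 0.33, SE; adjusted p = 0.817 with edgeR). Aldh16a1 and the mitochondrial folate enzyme Aldh1l2 had overlapping groups (-0.13 and 0.14). Gm21969 shares 30.0% of the 50-base stretches of Aldh4a1.

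The aldo-keto reductases held the members with the smallest p-values. Of 14 tested, 3 had a higher and 11 a lower fitted value (median -0.24, and -0.13 without CCl4 replicate 1), with 1 higher and 4 lower where the unadjusted p was under 0.05. The summed level of the family was 1666 and 1389.9 CPM with CCl4+givinostat and 2126, 2367 and 1988 CPM with CCl4, so that the groups did not overlap. Most of that gap came from the steroid-reducing Akr1c genes, which summed to 884 and 731 CPM with CCl4+givinostat and 1315, 1512 and 1256 CPM with CCl4. Akr1c6 alone carried the largest part of these sums, at 522 and 416 CPM with CCl4+givinostat and 806, 1057 and 798 CPM with CCl4. All 7 tested Akr1c genes had lower fitted values (median -0.64), with 4 at an unadjusted p under 0.05 and the other 3 nearer 0. The sign of Akr1c19 changed without CCl4 replicate 1 (0.09) and that of Akr1c12 without CCl4+givinostat replicate 2 (0.05).

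Akr1c14, a 3alpha-hydroxysteroid dehydrogenase that inactivates androgens (chromosome 13, 4049011 to 4090688, plus strand), was at 109 and 91.2 CPM with CCl4+givinostat and 167, 184 and 185 CPM with CCl4. The CCl4 values were tightly grouped and above both CCl4+givinostat values, and the log2 fold change was -0.83 ± 0.15 (SE; adjusted p = 0.180 with edgeR and 0.000901 with DESeq2). Akr1c6 (chromosome 13, 4434306 to 4457877, plus strand), which makes and breaks down sex steroids at their 17 position, was at 522 and 416 CPM with CCl4+givinostat and 806, 1057 and 798 CPM with CCl4. CCl4 replicate 2 was the highest library for Akr1c6, and no CCl4 library came near the CCl4+givinostat ones (-0.92 ± 0.19, SE; adjusted p = 0.243 with edgeR and 0.00416 with DESeq2). With each library left out, the log2 fold change was -0.97 to -0.71 for Akr1c14 and -1.09 to -0.77 for Akr1c6. Akr1c20, the next gene after Akr1c6 in the cluster, was at 49.8 and 49.5 CPM with CCl4+givinostat and 64.2, 80.3 and 87.5 CPM with CCl4, again with groups apart (-0.64 ± 0.17, SE; adjusted p = 0.387 with edgeR and 0.110 with DESeq2). Akr1c6 and Akr1c20 share 1.38% of the 50-base stretches of Akr1c6. Akr1c18, a 20alpha-hydroxysteroid dehydrogenase that inactivates progesterone, was rare at 1.23 and 0.718 CPM with CCl4+givinostat and 1.80, 1.49 and 3.22 CPM with CCl4, and CCl4 replicate 3 stood above the others (-1.15 ± 0.47, SE; adjusted p = 0.643 with edgeR). Between them in the cluster, Akr1c13, Akr1c19 and Akr1c12 had overlapping groups and log2 fold changes of -0.14, -0.35 and -0.09. For Akr1c19, CCl4 replicate 1 was far above the other 4 libraries, at 67.1 and 59.8 CPM with CCl4+givinostat and 123, 62.1 and 56.7 CPM with CCl4. Akr1c12 and Akr1c13 share 24.2% of the stretches of Akr1c13, so their separate values are uncertain. Some genes known for sex-biased expression in mouse liver also differed beside these steroid reductases. A1bg, a female-biased gene, was at 4.62 and 7.95 CPM with CCl4+givinostat and 20.0, 57.0 and 52.6 CPM with CCl4, with groups apart (-2.78 ± 0.48, SE; adjusted p = 0.169 with edgeR and 7.03e-08 with DESeq2). Of 6 female-list genes, Xist included, 2 were lower at an unadjusted p under 0.05, A1bg and Cyp3a41a. Cyp3a41a was at 0.197 and 0.0449 CPM with CCl4+givinostat and 0.142, 2.17 and 0.675 CPM with CCl4, with overlapping groups. The other female-list genes lay on both sides of 0, with overlapping groups. Their log2 fold changes were 0.19 for Cyp2b9, 0.20 for Cux2, -0.12 for Cyp2b13 and -0.19 for Xist. Summed levels of that list, mostly Xist, were 866 and 967 CPM with CCl4+givinostat and 939, 1071 and 1055 CPM with CCl4. Of 8 male-list genes 2 were tested, and Cyp4a12a was the one at that threshold, at 3.88 and 1.30 CPM with CCl4+givinostat and 0.853, 0.481 and 0.104 CPM with CCl4. Mup20, the other one tested, had a fitted value on the other side of 0 (-0.44 ± 0.31, SE) and overlapping groups. Summed levels of the male list, mostly Mup20, were 273 and 150.3 CPM with CCl4+givinostat and 262, 210.2 and 378 CPM with CCl4. The part of sex-biased expression in the Akr1c differences was not tested.

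**Figure D4:**
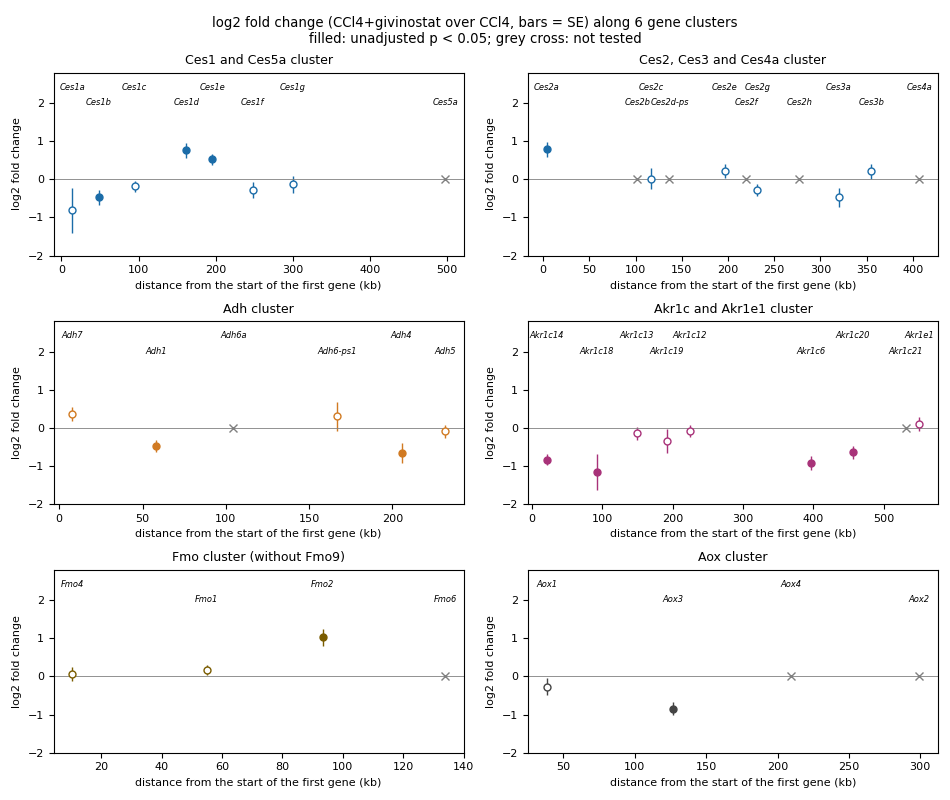
Log2 fold change (CCl4+givinostat over CCl4, bars of 1 SE) along 6 gene clusters against distance in kb from the start of the first gene; filled points have an unadjusted p under 0.05 and grey crosses are members that were not tested. Ces1d and Ces1e stand above 0 between neighbours below it, and in the Akr1c cluster Akr1c14, Akr1c18, Akr1c6 and Akr1c20 stand lowest, with 3 genes nearer 0 between them.

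Akr1b7, an aldose reductase-like enzyme that reduces the aldehydes left by lipid peroxidation and by steroid synthesis (chromosome 6, 34412334 to 34423142, plus strand), was the reductase with a higher value at an unadjusted p under 0.05. It was at 7.62 and 5.79 CPM with CCl4+givinostat and 2.70, 3.56 and 2.65 CPM with CCl4, with both CCl4+givinostat libraries above the CCl4 ones (1.17 ± 0.27, SE; adjusted p = 0.297 with edgeR and 0.0362 with DESeq2). A gene model on the other strand, Gm13857, covers 27.2% of the exonic bases of Akr1b7, and the sources used here do not say whether counting used strand. Its neighbours in the Akr1b cluster, Akr1b8 and Akr1b10, had overlapping groups and log2 fold changes of -0.64 and 0.13, and Akr1b10 was at -0.02 without CCl4+givinostat replicate 1. Akr1a1, the general aldehyde reductase, was at 484 and 427 CPM with CCl4+givinostat and 520.0, 516 and 465 CPM with CCl4, and Akr1d1, the 5beta-reductase of bile acid synthesis, was at 109 and 82.9 CPM with CCl4+givinostat and 121, 142 and 101 CPM with CCl4. Their groups overlapped (-0.14 ± 0.15 and -0.33 ± 0.20, SE), as did those of Akr7a5 and Akr1e1 (-0.13 and 0.10).

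The flavin monooxygenases were the one family of the 6 whose median lay above 0 (0.17) over 5 tested members. Fmo2, the form best known from lung (chromosome 1, 162874317 to 162898726, minus strand), was at 49.0 and 37.4 CPM with CCl4+givinostat and 21.8, 16.4 and 25.5 CPM with CCl4. Both CCl4+givinostat libraries lay above the CCl4 ones (1.03 ± 0.22, SE; adjusted p = 0.247 with edgeR and 0.00950 with DESeq2), with values of 0.82 to 1.21 when each library was left out. Fmo6, a neighbour of Fmo2 on chromosome 1, was at 0 and 1 counts with CCl4+givinostat and at 0 in all 3 CCl4 libraries. Fmo1, in the same cluster, was at 229 and 216 CPM with CCl4+givinostat and 191, 209 and 194 CPM with CCl4, a narrow gap with groups apart (0.17 ± 0.14, SE; adjusted p = 0.877 with edgeR). Fmo5, on chromosome 3, a Baeyer-Villiger oxygenase and the most abundant form, was at 520.3 and 517 CPM with CCl4+givinostat and 602, 490.1 and 499 CPM with CCl4, with overlapping groups and a fitted difference of -0.03 ± 0.15 (SE) that changed sign without CCl4 replicate 1 (0.07). Fmo4 was at 11.1 and 10.9 CPM with CCl4+givinostat and 10.8, 10.7 and 9.98 CPM with CCl4, again a narrow gap (0.07 ± 0.18, SE; adjusted p = 0.981 with edgeR).

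**Figure D5:**
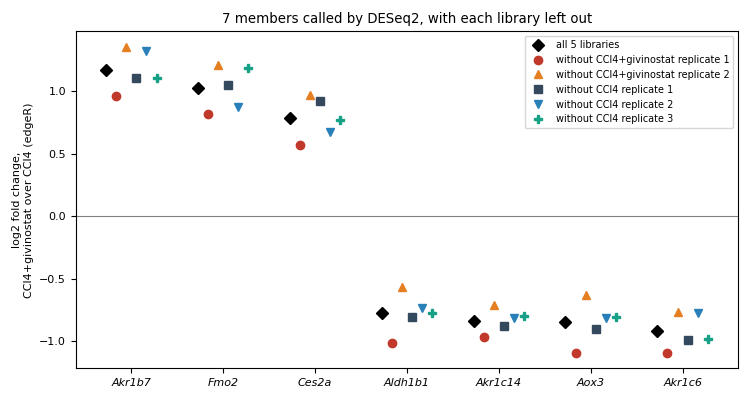
Log2 fold change (CCl4+givinostat over CCl4, edgeR) of 7 members called by DESeq2 with all 5 libraries (black diamonds) and with each library left out in turn. Each member kept its side of 0 in all 6 fits, an outcome close to fixed in advance because the groups of these members do not overlap. The value for Akr1b7 ran from 0.96 to 1.35.

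Aldehyde oxidases are molybdenum enzymes that oxidise aldehydes and aromatic nitrogen rings in drugs. Aox3 (chromosome 1, 58113130 to 58200698, plus strand) was at 78.5 and 56.7 CPM with CCl4+givinostat and 112, 125 and 126 CPM with CCl4. The 3 CCl4 libraries lay close together and above both CCl4+givinostat libraries (-0.84 ± 0.18, SE; adjusted p = 0.247 with edgeR and 0.0101 with DESeq2), with values of -1.09 to -0.63 when each library was left out. Aox1, whose gene ends 6.72 kb before Aox3 begins, was at 87.3 and 108 CPM with CCl4+givinostat and 151, 114 and 87.5 CPM with CCl4. Its groups overlapped through CCl4 replicate 3, and its difference was -0.27 ± 0.23 (SE; adjusted p = 0.890 with edgeR), and -0.05 without CCl4 replicate 1. Aox2 had at most 4 counts in a library and Aox4 was listed at 0. Whether Aox3 and Aox1 differ in their response was not tested.

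Enzymes and partners outside the 6 families were read from lists of textbook genes. Of 12 other hydrolases, 10 had a higher fitted value, 2 of them at an unadjusted p under 0.05. These were Mgll, the monoglyceride lipase, at 362 and 357 CPM with CCl4+givinostat and 226, 234 and 244 CPM with CCl4, and Ephx2, the soluble epoxide hydrolase, at 1127 and 886 CPM with CCl4+givinostat and 621, 597 and 638 CPM with CCl4. DESeq2 called both (adjusted p = 0.00950 and 0.0160), and their edgeR adjusted p-values were 0.248 and 0.276. Of 19 other carbonyl and alcohol oxidoreductases, 10 had higher and 9 lower fitted values, with 3 higher and 4 lower where the unadjusted p was under 0.05. The leading one, Hsd17b10, a mitochondrial dehydrogenase of fatty acids and steroids, was at 305 and 202 CPM with CCl4+givinostat and 108, 119.8 and 106 CPM with CCl4 (adjusted p = 0.143 with edgeR and 8.21e-05 with DESeq2).

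In ethanol handling, Cyp2e1, the cytochrome P450 that oxidises ethanol beside Adh1 and that also activates CCl4, was at 3039.5 and 1639 CPM with CCl4+givinostat and 859, 1038 and 984 CPM with CCl4, with groups apart (1.28 ± 0.25, SE; adjusted p = 0.210 with edgeR and 0.000750 with DESeq2). Cyp2e1 thus lay higher where Adh1 lay lower, while Cat, catalase, was at 1761 and 1722 CPM with CCl4+givinostat and 1859, 2038 and 1874 CPM with CCl4 (-0.14 ± 0.14, SE). Of 14 symbols listed for partners and molybdenum enzymes, 10 matched a row of the tables. Among these, Por, the reductase that feeds electrons to P450 enzymes, was the single one at an unadjusted p under 0.05, at 656 and 511 CPM with CCl4+givinostat and 445, 394 and 337 CPM with CCl4 (0.57 ± 0.18, SE; adjusted p = 0.479 with edgeR). Mocos, which adds the sulfur that aldehyde oxidases need, was at 43.6 and 40.7 CPM with CCl4+givinostat and 52.7, 35.5 and 35.1 CPM with CCl4, with overlapping groups. Among 15 regulators, an unadjusted p under 0.05 was found for 1 that was higher and 2 that were lower. Ppara, the fatty acid receptor, was at 247 and 242 CPM with CCl4+givinostat and 225, 159.9 and 130.0 CPM with CCl4, Ahr, the dioxin receptor, at 39.6 and 26.7 CPM with CCl4+givinostat and 47.5, 55.2 and 57.7 CPM with CCl4, and Cebpb at 230.3 and 208 CPM with CCl4+givinostat and 313, 281 and 262 CPM with CCl4, with edgeR adjusted p-values of 0.668, 0.446 and 0.614. Of 12 textbook targets of Ppara, 11 were higher at an unadjusted p under 0.05, and of 11 NRF2 targets 1 was higher and 2 were lower, each against the 3.52% and 3.93% of all genes given above.

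Zonation and cell type markers were read in the same way. Of 9 general hepatocyte markers, Apoa2 was higher (0.41 ± 0.17, SE) and Fgb lower (-0.75 ± 0.18, SE) at that threshold. DESeq2 called Fgb (adjusted p = 0.00896), and the edgeR adjusted p was 0.643 for Apoa2 and 0.330 for Fgb. Of 12 markers of hepatocytes around the central vein, an unadjusted p under 0.05 was found for 1 that was higher and 2 that were lower. Their summed levels, in which Cyp2e1 weighs most, were 4961 and 2993 CPM with CCl4+givinostat and 2905, 3258 and 2772 CPM with CCl4. Of 12 markers of hepatocytes around the portal tract, 1 was higher and 0 were lower, with summed levels of 19575 and 17645 CPM with CCl4+givinostat and 19797, 16638 and 13904 CPM with CCl4. Of 8 Kupffer cell and macrophage markers, 8 had lower fitted values, 2 at an unadjusted p under 0.05, with summed levels of 450.2 and 543 CPM with CCl4+givinostat and 396, 820.2 and 593 CPM with CCl4 that overlapped. Of 8 stellate, 6 sinusoidal endothelial, 5 cholangiocyte and 4 tested lymphocyte markers, 1 stellate marker was higher, 2 cholangiocyte markers were lower and the other markers did not pass that threshold. The part of cell make-up or of position in the lobule in the differences of the members was not tested.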

How the data were processed

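Libraries had been made from total RNA of frozen liver with the Illumina TruSeq kit, per the labels' protocols. Each deposited file holds whole-number read counts, not normalized, for 24834 rows named by symbol. From the submitters' processing notes come Bowtie 0.12.2 and the builds mm8 and mm10, with no statement of which was used where. No source used here gives the counting program, its annotation or its use of strand. Dates stood where symbols should in 26 rows, which held 0.144 to 0.169% of a library and were left out.

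Groups came from the treatment label and replicate numbers from the titles. The labels state no batch and do not say that the libraries are separate mice beyond the series design, so p-values measure the spread between these libraries. Chi-square tests found no pair of libraries within sampling noise. Genes were kept by filterByExpr (13590), scaled by TMM and tested with the quasi-likelihood model of edgeR 4.0.16 in R 4.3.3, with treatment as the only term and 3 residual degrees of freedom. DESeq2 1.42.0 was the alternative tool, on the same genes. CPM uses TMM-scaled library sizes, and SE is the absolute log2 fold change over the square root of F. The procedure was tested on simulated counts.

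The members and lists were chosen with earlier results of these data known. Members were named when their unadjusted p was under 0.05 or when they were among the 3 smallest p-values or the 3 highest levels of a family. One tested member counted in the totals and family summaries is not reported here. Near copies and some others were added after their values were seen. Positions, exon lengths and overlaps come from GENCODE M21 on GRCm38 (mm10), matched by symbol for all 71 members, and shared 50-base stretches from its transcripts. Promoters come from RefSeq (GRCm38.p6), matched for 56 members. The read length is not given, so 50 bases are a convention.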

Additional observations from a re-analysis of the deposited data

How the results depend on the processing

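edgeR called 0 members with RLE scaling in place of TMM, without the filter on low counts, with a filter of 10 counts, and at an adjusted p of 0.1. It called 5 (8.93%, against 1.07% of all genes) with a block for the replicate number, against 8 with DESeq2, and 0 to 11 with each CCl4 library left out. The block leaves fewer residual degrees of freedom than the main fit. CCl4 replicate 3 has no same-numbered CCl4+givinostat library, so it adds nothing to the fold change with the block. Members lower at an unadjusted p under 0.05 numbered 7 to 13 with each library left out. DESeq2 with each CCl4 library left out, chosen after seeing the data, called 1 to 6 members higher and 0 to 7 lower. Over all members the median log2 fold change was -0.223 to -0.0282 with each library left out, over Aldh genes -0.2125 to 0.0186 and over Akr genes -0.33 to -0.13. The Akr median was -0.34 with the block. With no low-count filter, which adds nearly unexpressed genes, the median was 0.21 for Ces, 0.59 for Fmo and -0.27 for Aox genes. Of the 29 members taken by the naming rule (p-value or level), 4 changed sign somewhere, namely Adh5, Aldh2, Aldh1l1 and Fmo5. Among other tested members, the sign changed with a library left out for Ces1g, Ces2c, Ces3b, Adh6-ps1, Akr7a5, Akr1c12, Akr1c19, Akr1b10 and Akr1e1. It also changed for Aldh5a1, Aldh6a1, Aldh8a1, Aldh16a1 and Aldh1l2. With each library left out, Adh5 was at -0.294 to 0.10, Aldh2 at -0.140 to 0.0804, Aldh1l1 at -0.20 to 0.282 and Fmo5 at -0.0853 to 0.0688, and Aldh1l1 was at -0.0533 with the block. The replicate numbers are shared by title only. Deviations of same-numbered libraries from their group means correlated at -0.148 and -0.0753. With 2 CCl4+givinostat libraries, their deviations mirror each other, so these values cannot show or exclude a pairing. The block is reported as a setting of the fit and not as a known pairing. With 3 residual degrees of freedom in the main fit and 2 libraries in 1 group, differences the size of the spread between libraries are not detectable.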
